A study of Rattus norvegicus with 22 samples.

Results

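The cytosolic chaperonin CCT, also called TRiC, was described here through the mRNAs of its 8 subunit genes, Tcp1, Cct2, Cct3, Cct4, Cct5, Cct6a, Cct7 and Cct8. The members were the probes, other than controls, whose RefSeq accession belongs to those 8 symbols. All 8 genes were found, on 10 of the 17986 named probes, among 15150 named genes. Tcp1 and Cct6a had a pair of probes each. Every one of the 10 probes was well above background on 22 of 22 arrays, so no member was lost to the filter on dim probes.

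CCT is built from a pair of stacked rings, each made of 8 related subunits in a fixed order. An unfolded protein binds inside the ring, ATP binding and hydrolysis close the lid, and the protein folds in the closed chamber. Tubulins and actins are its best known clients, and in the testis these proteins are needed for the spindle of meiosis and for the reshaping of spermatids. The subunits are paralogs, each encoded by its own gene, and the complex needs all of them in equal numbers.

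RNA came from germ cells of male rats that were gavaged with saline or with 6 mg/kg of cyclophosphamide, a drug used against cancer that alkylates DNA. They were dosed on 6 days of each week over 4 weeks. Pachytene spermatocytes, which are in the long prophase of meiosis, gave 5 saline and 5 cyclophosphamide samples, and round spermatids, the haploid cells after meiosis, gave 6 saline and 6 cyclophosphamide samples. The labels number the rats but do not say whether a number that recurs in both cell types of a treatment is the same animal, nor whether 2 cyclophosphamide pachytene samples, both of a rat numbered 16 but with different years, are. The cells were separated by STA-PUT sedimentation at unit gravity, so each sample is an enriched fraction and not a pure cell type, and the labels used here give neither strain nor age. Each sample was read on a one-colour Agilent array. A level below is the log2 signal of a probe relative to the 75th percentile of its array, so levels compare samples for the same probe and not 1 gene with another. In such bulk fractions, fewer cells of a type and less RNA per cell cannot be told apart, and the amount of RNA per cell was not measured.

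The 75th percentile signal ran from 1068 to 2416.7 intensity units over the 22 arrays, and 65.3% to 76.4% of probes were well above background. The arrays lay on 4 slides: both cell types shared slides 1 and 2, and slides 3 and 4 held pachytene arrays alone. The 10 pachytene markers (Sycp3, Sycp1 and others, all above background in every group) had a summed linear level of 77.3 to 109 in pachytene arrays and 32.2 to 45.9 in round spermatid arrays. The 11 round spermatid markers (Acrv1, Tnp1, Prm1 and others) summed to 149 to 405 in pachytene arrays and 552 to 965 in round spermatid arrays. Both sums thus went the way of the labels, and neither fraction lacked the other's markers. The lists were chosen with earlier results of these data known, so this does not test the labels. Bright genes weigh most in such sums. Somatic markers moved with cell type too. The 7 of 8 Sertoli cell markers on the array, all above background, summed to 21.5 to 38.5 in pachytene arrays and 2.21 to 6.82 in round spermatid arrays. The 5 Leydig cell markers summed to 5.17 to 11.4 and 1.71 to 4.18. The 8 macrophage markers went the other way, at 0.501 to 1.29 and 3.91 to 11.8, as did the 5 peritubular myoid markers, at 1.1 to 2.19 and 3.21 to 5.78, among which Cnn1 was below background on all pachytene arrays. The 5 of 6 spermatogonial markers on the array summed to 4.59 to 8.23 and 9.83 to 14.1, with Zbtb16 below background on all pachytene arrays. The 4 of 5 endothelial markers on the array summed to 0.284 to 0.615 and 0.203 to 0.444, and the 2 of 3 red blood cell markers to 1.21 to 2.60 and 0.305 to 1.89. The part of these cells in the differences between cell types given below was not tested.

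Between the cell types the 8 subunits did not move as a block. In saline rats 6 of 8 were lower in round spermatids than in pachytene spermatocytes (Tcp1, Cct3, Cct4, Cct6a, Cct7 and Cct8), 1 was higher (Cct2) and 1 was not called (Cct5). Over all 19401 genes tested in that comparison, 37.0% were called lower and 38.3% higher, so a large share of all genes differed between these cells. The median difference of the 8 members was -0.52 on the log2 scale, against 0.01 over all tested genes. The members ranged from -2.40 for Cct8 to 0.47 for Cct2. The levels of the pachytene and round spermatid groups did not overlap for 6 of 8 members, where 57.1% of all tested genes had groups apart. In cyclophosphamide rats the same comparison again gave 6 of 8 lower and 1 higher, with the same genes on each side, against 40.4% lower and 38.8% higher of 19332 tested genes. There the groups were apart for 7 of 8 members and for 67.1% of all tested genes, and the member median was -0.61 against -0.02. With quantile normalized arrays instead, Cct5 was called lower in both treatments and Cct2 lost its call in saline rats. All 7 members that then passed in saline rats were lower. Differences were tested with limma over all genes, with Benjamini-Hochberg adjusted p-values, and ± gives the standard error.

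**Figure D1:**
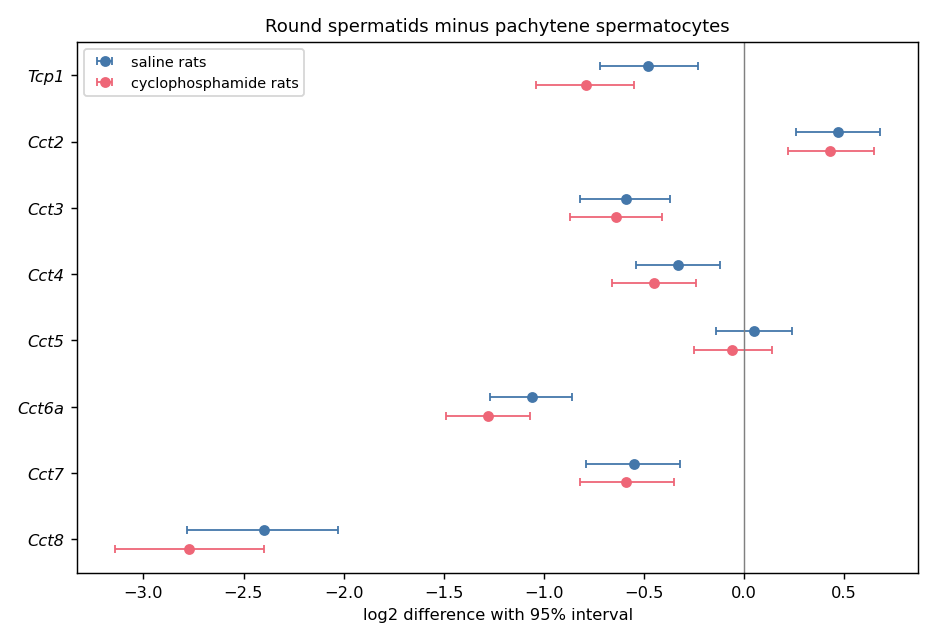
The log2 difference of round spermatids minus pachytene spermatocytes is plotted for each subunit with its 95% interval, in saline rats (5 against 6 arrays) and in cyclophosphamide rats (5 against 6 arrays). Cct8 lies farthest to the left at -2.40 and -2.77, Cct6a follows at -1.06 and -1.28, Cct2 lies to the right of 0 at 0.47 and 0.43, and the interval of Cct5 spans 0 in both.

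Promoter sequence is shown for the members with the largest differences, Cct8 and Cct6a, for Cct2, the member that was higher in round spermatids, and for Cct5, the member that was not called. Each is the 250 bases before the annotated start, 5′ to 3′ on the gene's strand, from RefSeq assembly GRCr8. All 8 members matched an entry of that promoter table. Capitals mark CCAAT boxes (CCAAT on either strand) and GC boxes (GGGCGG on either strand).
Cct8 promoter, chr11:40208329-40208578, minus strand: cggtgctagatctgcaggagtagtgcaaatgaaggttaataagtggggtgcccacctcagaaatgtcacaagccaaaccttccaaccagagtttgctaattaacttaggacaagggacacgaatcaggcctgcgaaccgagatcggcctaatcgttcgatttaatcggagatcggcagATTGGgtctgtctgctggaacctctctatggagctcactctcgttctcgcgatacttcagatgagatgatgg
Cct6a promoter, chr12:32519073-32519322, minus strand: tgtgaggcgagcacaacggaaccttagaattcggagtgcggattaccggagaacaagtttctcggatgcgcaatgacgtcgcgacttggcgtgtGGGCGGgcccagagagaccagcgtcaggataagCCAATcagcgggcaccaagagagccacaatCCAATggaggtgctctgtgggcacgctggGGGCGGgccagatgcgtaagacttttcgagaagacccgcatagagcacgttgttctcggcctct
Cct2 promoter, chr7:54591406-54591655, minus strand: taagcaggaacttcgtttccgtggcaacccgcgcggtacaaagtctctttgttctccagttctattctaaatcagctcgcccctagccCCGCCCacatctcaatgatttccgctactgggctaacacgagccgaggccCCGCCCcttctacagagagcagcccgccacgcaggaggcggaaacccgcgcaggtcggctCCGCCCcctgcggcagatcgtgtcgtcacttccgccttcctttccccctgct
Cct5 promoter, chr2:84313774-84314023, minus strand: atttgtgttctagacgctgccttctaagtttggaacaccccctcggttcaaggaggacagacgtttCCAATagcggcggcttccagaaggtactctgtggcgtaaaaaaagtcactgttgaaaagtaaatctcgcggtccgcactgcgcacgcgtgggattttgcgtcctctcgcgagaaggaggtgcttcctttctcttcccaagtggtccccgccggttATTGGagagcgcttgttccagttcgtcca

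The searched windows ran from 250 bases before to 50 bases after each start, and both strands were read. A CCAAT box was present in 5 of 8 members (Cct3, Cct5, Cct6a, Cct7 and Cct8) and in 37.5% of 33469 promoters of the same length. In Cct8 it lay 72 bases before the start, and Cct2 had none. A GC box was present in 6 of 8 (all but Cct4 and Cct5) and in 33.1% of promoters. Cct2 had 3, and the GC box of Cct8 lay 7 bases after its start, outside the stretch printed above. The heat shock element GAANNTTCNNGAA, the site of heat shock factors, was found in 1 of 8, Cct4, as TTCTGGAAGGTTC at 26 bases after the start, and in 0.798% of promoters. The cAMP response element TGACGTCA was likewise found in Cct4 alone, 45 bases before the start, and in 1.83% of promoters. The MYB site CAACTG was found in Cct7 and in 13.9% of promoters. The NRF1 core GCGCATGC was found in 0 of 8 and in 2.47% of promoters. No motif overlapped another within these 8 windows. GC content ran from 52.3% in Cct8 to 66% in Cct4 and Cct7, with a median of 51.7% over all promoters. These matches describe letters in a window and not bound sites.

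The subunits are taken below by the side of the ring they lie on. Within a side those lower in round spermatids come first, by the size of their difference in saline rats, and Cct2 and Cct5 come last. Biochemical work places Tcp1, Cct2, Cct4 and Cct5 on the side of the ring that binds ATP strongly, and Cct3, Cct6a, Cct7 and Cct8 on the side that binds it weakly. This order was chosen with the values known, so the split carries no test. In saline rats the differences between cell types ran from -0.48 to 0.47 among the former and from -2.40 to -0.55 among the latter. The sides overlapped in cyclophosphamide rats, at -0.79 to 0.43 and -2.77 to -0.59, since Tcp1 (-0.79) lay below Cct3 (-0.64) and Cct7 (-0.59). In saline rats they overlapped once slide was fitted as a block, with Tcp1 at -0.53 and Cct7 at -0.42.

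Cct8 (chromosome 11, 40196619 to 40208328 on GRCr8), the theta subunit, showed the largest difference. In pachytene spermatocytes of saline rats its log2 level was 0.73, 0.75, 0.84, 0.98 and 1.14. In saline round spermatids it had a lowest level of -2.20, a median of -1.44 and a highest of -1.13, so every round spermatid array lay far below every pachytene array. The difference was -2.40 ± 0.18, a 5.28-fold lower level (95% interval 4.07 to 6.85, limma adjusted p = 6.25e-11). Of all tested genes, 3.68% were lower still. In cyclophosphamide rats the pachytene levels were 0.88, 0.96, 1.23, 1.27 and 1.30 and the round spermatid levels had a lowest of -1.99, a median of -1.76 and a highest of -1.21. The groups were again apart, with a 6.82-fold lower level in round spermatids (5.26 to 8.85, limma adjusted p = 3.48e-12), and 3.06% of genes were lower still. Within slide 1 the log2 difference in saline rats was -2.03 and within slide 2 it was -2.72, each from a single pachytene array.

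Cct6a (chromosome 12, 32508842 to 32519072), the zeta subunit, was next. Its levels in saline pachytene spermatocytes were 2.53, 2.59, 2.62, 2.81 and 2.87. In saline round spermatids the lowest was 1.48, the median 1.63 and the highest 1.84. The groups were far apart, and the level was 2.09-fold lower in round spermatids (1.81 to 2.41, log2 difference -1.06 ± 0.10, limma adjusted p = 1.88e-09). In cyclophosphamide rats the levels were 2.58, 2.71, 2.78, 2.81 and 2.85 in pachytene spermatocytes and 1.32, 1.44 and 1.67 (lowest, median, highest) in round spermatids, a 2.43-fold lower level (2.11 to 2.80, limma adjusted p = 6.01e-11). The other Cct6a probe gave -1.10 ± 0.12 in saline rats and -1.11 ± 0.12 in cyclophosphamide rats, so both probes placed the gene lower in round spermatids by similar amounts. Cct6b, the testis paralog of the zeta subunit, lay at 3.31 ± 0.46 (SD, n = 5) in saline pachytene spermatocytes and 3.31 ± 0.09 (n = 6) in saline round spermatids, with a limma adjusted p of 0.989 and a 95% interval of -0.32 to 0.31. Its difference in cyclophosphamide rats was -0.15 ± 0.15, with an interval of -0.46 to 0.16. Whether Cct6a and Cct6b differed in their response was not tested.

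Cct3 (chromosome 2, 176063529 to 176088180), the gamma subunit, had saline pachytene levels of 6.30, 6.39, 6.39, 6.61 and 6.70. Saline round spermatids had a lowest of 5.77, a median of 5.88 and a highest of 6.05, below all pachytene arrays. The level was 1.51-fold lower (1.29 to 1.77, log2 difference -0.59 ± 0.11, limma adjusted p = 3.9e-05). In cyclophosphamide rats the pachytene levels were 6.34, 6.49, 6.51, 6.58 and 6.63 and the round spermatid levels 5.60, 5.84 and 6.16 (lowest, median, highest), again without overlap and with a 1.56-fold difference (1.33 to 1.82, limma adjusted p = 1.39e-05).

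Cct7 (chromosome 4, 119546730 to 119563973), the eta subunit, was similar. Saline pachytene levels were 4.18, 4.30, 4.32, 4.40 and 4.69, and saline round spermatids had a lowest of 3.53, a median of 3.84 and a highest of 4.02. The groups did not overlap, and the level was 1.47-fold lower in round spermatids (1.25 to 1.73, log2 difference -0.55 ± 0.11, limma adjusted p = 0.000142). In cyclophosphamide rats the pachytene levels were 4.28, 4.28, 4.31, 4.51 and 4.67 against 3.67, 3.80 and 4.05 (lowest, median, highest), a 1.5-fold difference (1.28 to 1.77, limma adjusted p = 6.57e-05).

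Tcp1 (chromosome 1, 50376848 to 50384527), the alpha subunit after which the family is named, had saline pachytene levels of 5.22, 5.37, 5.40, 5.72 and 5.76. Saline round spermatids had a lowest of 4.86, a median of 5.02 and a highest of 5.15, so the groups lay close but apart. The level was 1.39-fold lower (1.18 to 1.65, log2 difference -0.48 ± 0.12, limma adjusted p = 0.000922). In cyclophosphamide rats it was 1.73-fold lower (1.46 to 2.05, limma adjusted p = 2.21e-06), from pachytene levels of 5.53, 5.63, 5.67, 5.70 and 5.79 and round spermatid levels of 4.62, 4.86 and 5.20 (lowest, median, highest). The other Tcp1 probe gave -0.52 ± 0.11 and -0.81 ± 0.11, close to the chosen probe's -0.48 and -0.79.

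Cct4 (chromosome 14, 101193057 to 101205935), the delta subunit, had the smallest difference that passed in saline rats. Saline pachytene levels were 3.46, 3.65, 3.76, 3.92 and 4.04 and saline round spermatid levels had a lowest of 3.24, a median of 3.48 and a highest of 3.57. The groups overlapped, since 1 pachytene array lay at 3.46. The level was 1.26-fold lower in round spermatids (1.09 to 1.45, log2 difference -0.33 ± 0.10, limma adjusted p = 0.00563). In cyclophosphamide rats the groups were apart, at 3.85, 3.86, 4.00, 4.07 and 4.09 against 3.45, 3.55 and 3.57 (lowest, median, highest), a 1.37-fold difference (1.18 to 1.58, limma adjusted p = 0.000334).

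Cct2 (chromosome 7, 54578654 to 54591428), the beta subunit, went the other way. Its saline pachytene levels were 2.71, 2.98, 2.99, 3.0 and 3.07, and its saline round spermatid levels had a lowest of 3.16, a median of 3.42 and a highest of 3.59, above all pachytene arrays. The level was 1.38-fold higher in round spermatids (1.19 to 1.61, log2 difference 0.47 ± 0.10, limma adjusted p = 0.000299). In cyclophosphamide rats it was 1.35-fold higher (1.16 to 1.57, limma adjusted p = 0.000615), from 2.79, 2.96, 2.98, 3.16 and 3.18 to 3.33, 3.41 and 3.65 (lowest, median, highest). With arrays quantile normalized instead, the difference was 0.19 (adjusted p = 0.0757) in saline rats, which loses the call, and 0.21 (adjusted p = 0.0464) in cyclophosphamide rats.

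Cct5 (chromosome 2, 84302621 to 84313773), the epsilon subunit, did not pass. Its saline pachytene levels were 3.66, 3.76, 3.83, 3.94 and 4.04 and its saline round spermatid levels had a lowest of 3.72, a median of 3.91 and a highest of 4.05, overlapping throughout. The difference was 0.05 ± 0.09, with a 95% interval of -0.14 to 0.24 (limma adjusted p = 0.621). In cyclophosphamide rats it was -0.06 ± 0.09 (-0.25 to 0.14, limma adjusted p = 0.582). Its direction depended on the scaling: quantile normalized arrays gave -0.21 (adjusted p = 0.0134) and -0.23 (adjusted p = 0.00683), both called lower in round spermatids.

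**Figure D2:**
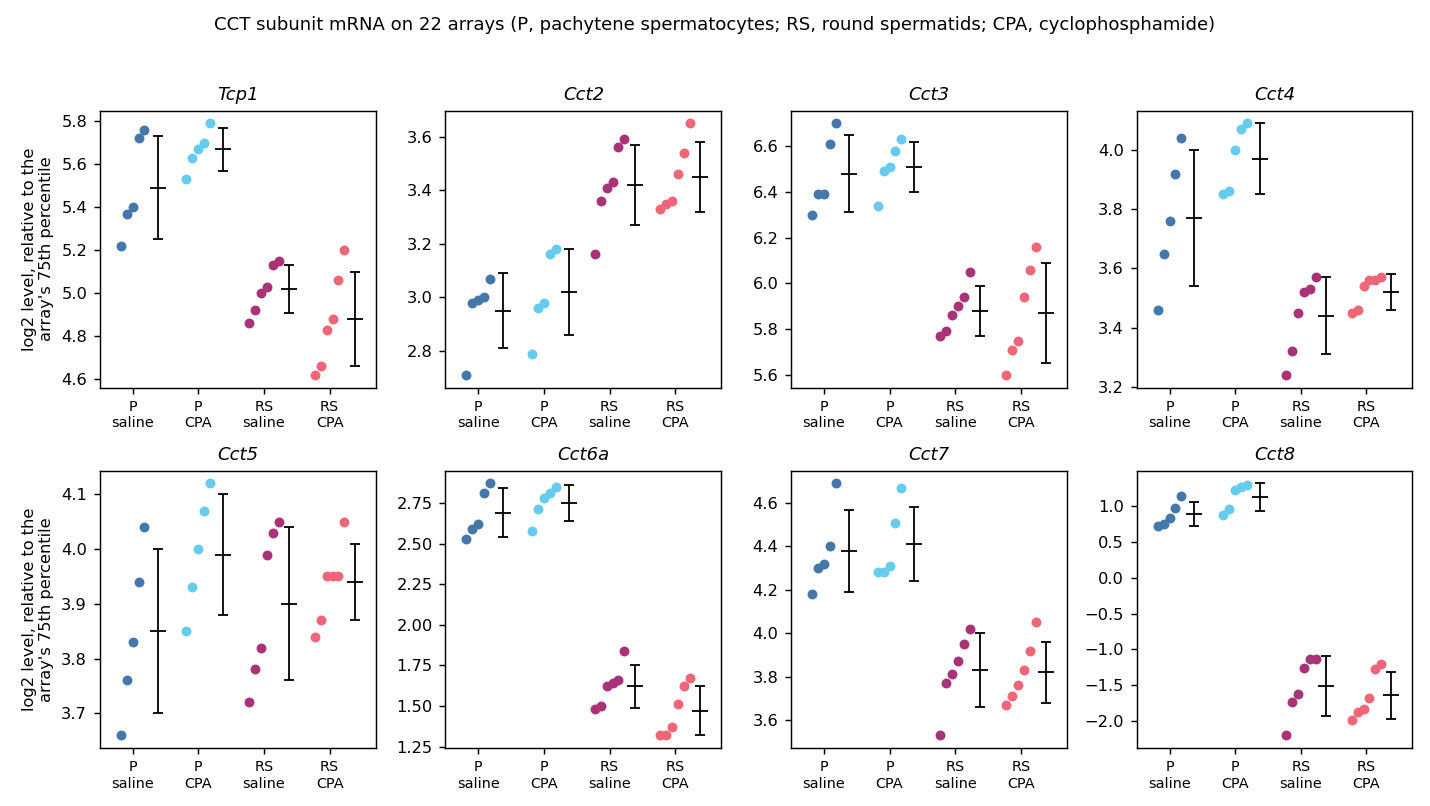
The log2 level of each subunit, relative to the array's 75th percentile, is plotted for each of the 22 arrays by group, with the mean and standard deviation beside the points. P is pachytene spermatocytes (n = 5 per treatment), RS round spermatids (n = 6) and CPA cyclophosphamide, and each panel has its own axis. Cct8 lies between 0.73 and 1.14 in saline pachytene arrays and between -2.20 and -1.13 in saline round spermatid arrays, while the 4 groups of Cct5 lie over each other.

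The members also differed in how they varied together. Across all 22 arrays the median Pearson r over the 28 pairs of members was 0.77, and 20 of 28 pairs were above 0. The cell type difference enters these values: with each gene's 4 group means removed, the median was 0.29, and 20 of 28 pairs were again above 0. The closest pair over all arrays was Cct6a and Cct8, at 0.97, which became 0.40 without the group means. Tcp1 and Cct3 stood at 0.94 and 0.77. Cct2 was negative against each of the 6 members that were lower in round spermatids, from -0.86 with Cct8 to -0.64 with Cct4. With group means removed 5 of these 6 pairs were above 0, from 0.04 with Cct4 to 0.37 with Tcp1, and Cct2 with Cct8 was at -0.22. On that scale the pairs among Tcp1, Cct3, Cct4, Cct5 and Cct7, a set chosen after its values were seen, ran from 0.42 to 0.77. With group means removed Cct8 was at -0.52 with Cct5 and -0.33 with Tcp1, and Cct6a at -0.46 with Cct5 and -0.30 with Cct4. All arrays share the same scaling, and these values are descriptions with no test.

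For each member the named gene most like it was sought among 11342 named genes tested over all 4 groups. Over the 22 arrays this was Psma8 for Cct8 (r = 0.996), Trmt61a for Cct6a (0.992), Cox6a1 for Cct3 (0.980), Trmt12 for Cct7 (0.976), Brdt for Tcp1 (0.974), Slc15a4 for Cct4 (0.962), Cdc37l1 for Cct2 (0.928) and Kl for Cct5 (0.783). The nearest fellow subunit stood between rank 53 and rank 743 in these orderings for all members but Cct2. Cct3 stood at rank 53 for Tcp1, and Tcp1 at rank 138 for Cct3. For Cct8 the nearest was Cct6a, at rank 657, and for Cct2 it was Cct5, at rank 4904. With group means removed the closest genes were Psma8 for Cct8 (0.937), Prkar1a for Cct3 (0.953), Unc50 for Cct4 (0.926), Mrps18a for Cct7 (0.925), Asrgl1 for Tcp1 (0.915), Thap11 for Cct6a (0.881), Pudp for Cct5 (0.871) and Klhl20 for Cct2 (0.809). Psma8 and Cct8 were thus nearest on both scales, the sole member for which the same gene led both. With group means removed, the nearest fellow subunit stood between rank 161 (Cct5 for Cct2) and rank 1806 (Cct8 for Cct6a).

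Psma8 encodes a proteasome alpha subunit of male germ cells. It was picked from these same arrays for its likeness to Cct8. Its cell type difference and its order beside Cct8 follow from that pick and carry no separate test. Its levels in saline pachytene spermatocytes were 4.15, 4.37, 4.38, 4.41 and 4.53, and in saline round spermatids -0.64, 0.44 and 0.82 (lowest, median, highest), a 17.2-fold difference (log2 difference -4.10 ± 0.23, limma adjusted p = 1.26e-12). Both genes were lowest in the saline round spermatids of rat 29, where Cct8 was at -2.20 and Psma8 at -0.64. The highest Cct8 levels of that group were -1.13 in rat 17 and -1.14 in rat 15, where Psma8 was at 0.68 and 0.82. In the order of rising Cct8 (rats 29, 28, 25, 16, 15 and 17) the pachytene marker sums of the saline round spermatid arrays were 39.2, 39.1, 45.9, 33.4, 39.8 and 37.5, and the Sertoli marker sums were 3.60, 2.40, 2.30, 6.82, 3.13 and 4.32. The highest Sertoli sum was thus in rat 16, with Cct8 at -1.26. The lowest sums were in rats 28 and 25, with Cct8 at -1.73 and -1.62, while rat 29, with the lowest Cct8, had 3.60. In cyclophosphamide round spermatids, rat 27 had the highest Sertoli sum (4.69) and the lowest Cct8 (-1.99). Rat 25 of that group had the lowest sum (2.21) and the highest Cct8 (-1.21). The part of other cells in this spread was not tested.

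**Figure D3:**
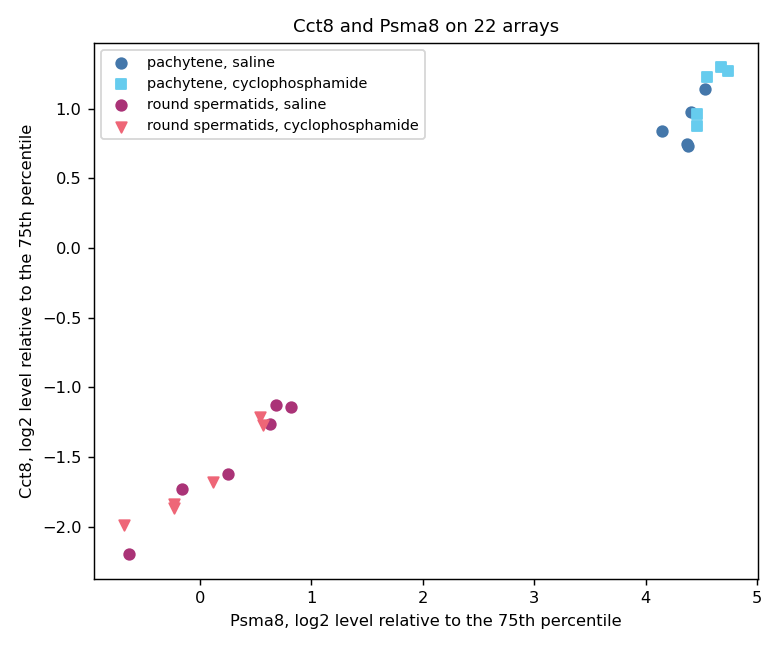
Each of the 22 arrays is a point placed by its log2 level of Psma8 (horizontal) and Cct8 (vertical), both relative to the array's 75th percentile, with colour and shape giving the group. The pachytene arrays gather at Psma8 levels of 4.15 to 4.74 and the round spermatid arrays spread from -0.68 to 0.82, with Cct8 higher where Psma8 is higher (r = 0.996 over all arrays and 0.937 with group means removed). Psma8 was picked from these same arrays for its likeness to Cct8.

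The other genes of the folding pathway were taken from 11 lists of 68 co-chaperones and clients, of which 62 were on the array and 58 were tested. In saline rats 17 of 58 were higher in round spermatids, 32 were lower and 9 did not pass, beside 38.3% higher and 37.0% lower over all genes. In cyclophosphamide rats 17 were higher, 35 lower and 6 did not pass, beside 38.8% higher and 40.4% lower over all genes. The lists are described by counts and medians alone.

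Prefoldin hands unfolded actin and tubulin to CCT, and 3 of its 4 tested subunits were lower in round spermatids of saline rats. Pfdn2 was 4.0-fold lower (log2 difference -2.0 ± 0.14), Pfdn6 2.55-fold and Pfdn5 1.27-fold, while Pfdn1 stood at 0.10 ± 0.11 (limma adjusted p = 0.424). Of the 7 prefoldin-like and R2TP genes, which assemble larger protein complexes, 5 were lower and 1 was higher. Pdrg1 was 3.63-fold and Rpap3 3.43-fold lower, and Uxt was 5.0-fold higher. The 3 tested phosducin-like genes, which modulate CCT, were all lower: Pdcl 2.01-fold, Txndc9 1.57-fold and Pdcl3 1.22-fold. The list medians were -0.85, -0.81 and -0.65, against 0.01 over all genes.

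The clients divided. Among 14 tested tubulin genes, 6 were higher and 6 lower, with a list median of -0.00. Tuba8 was 6.11-fold, Tubb2b 5.42-fold and Tuba4a 5.07-fold higher in round spermatids, while Tuba1a, chosen for display after its value was seen, was 3.83-fold lower. Tubulin genes are close copies of each other, so a probe may read more than its own gene. Of the 4 tested tubulin cofactors, which build the tubulin dimer after CCT releases its parts, 2 were lower, Tbcb by 3.49-fold and Tbcc by 1.89-fold, and 0 were higher. Of the 9 actin and actin-like genes 5 were higher and 4 lower. Actl9 and Actl7a, actin-like genes of spermatids, were 6.06-fold and 6.03-fold higher and Actl7b 2.99-fold.

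WD-repeat proteins such as Cdc20, the activator of the anaphase-promoting complex, are folded by CCT as well. Of 6 tested, 4 were lower and 1 was higher in round spermatids of saline rats. Cdc20 was 9.1-fold lower, Gnb1 2.45-fold and Gnb2 2.35-fold. Of 6 other clients 3 were higher and 3 lower, led by Stat3 (3.84-fold lower), Vhl (2.45-fold lower) and Plk1 (2.26-fold higher). The chaperonin-like genes Mkks and Bbs10, which act in BBSome assembly, were 2.49-fold and 1.42-fold lower. In the mitochondrial chaperonin, a separate complex, Hspe1 was 1.62-fold higher and Hspd1 stood at -0.40 ± 0.18 (limma adjusted p = 0.0579).

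**Figure D4:**
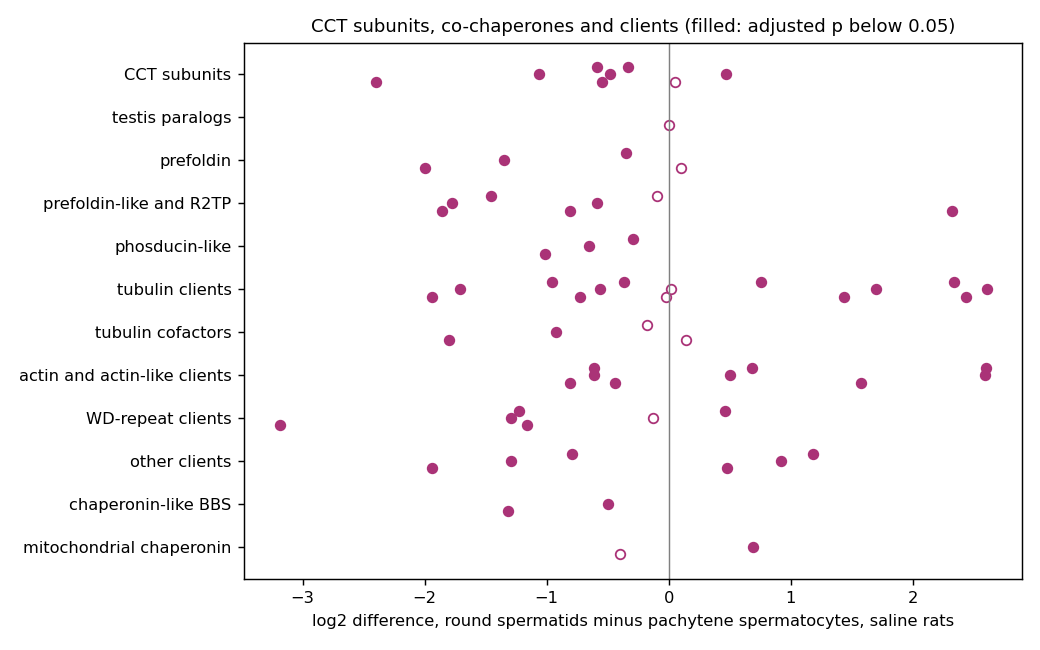
Each point is a gene, placed by its log2 difference of round spermatids minus pachytene spermatocytes in saline rats, with a row for the 8 CCT subunits and for each of 11 lists of partners, and with filled points for an adjusted p below 0.05. The CCT, prefoldin and phosducin-like rows lie mostly to the left of 0, from -2.40 for Cct8 and -2.0 for Pfdn2, while the tubulin and actin rows spread to both sides, up to 2.61 for Tuba8.

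Cyclophosphamide left no subunit past the threshold. In pachytene spermatocytes 0 of 8 members were called by limma, as were 0.0% of all 18450 genes tested. At an unadjusted p under 0.05 there were 0 members and 1343 genes (7.28%), and the smallest adjusted p of any gene was 0.683. All 8 members were above 0, from 0.03 to 0.24 on the log2 scale with a median of 0.11, against 0.04 over all genes, of which 42.7% were below 0. With quantile normalized arrays Cct3 and Cct7 turned to -0.03 and -0.04, and with the authors' deposited log2 values to -0.03 and -0.05. The groups overlapped for all 8 members, while 0.629% of genes had groups apart.

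The largest of these differences were Cct8 at 0.24 ± 0.19 (95% interval -0.15 to 0.63), Cct4 at 0.21 ± 0.11 (-0.01 to 0.43) and Tcp1 at 0.17 ± 0.12 (-0.08 to 0.43). For Cct4 the unadjusted p was 0.0605 and the limma adjusted p 0.683. The 5 treated arrays lay at 3.85 to 4.09 and the 5 saline arrays at 3.46 to 4.04, so the groups overlapped, with 2 treated arrays (4.07 and 4.09) above every saline array. The other 5 members lay between 0.03 and 0.15, and all 8 intervals held 0. The other Cct6a probe gave -0.03 ± 0.13 where the chosen probe gave 0.06 ± 0.10. Within slide 1, which held 1 pachytene array of each treatment, 6 of 8 members were below 0 (Tcp1 -0.13, Cct3 -0.21, Cct4 -0.07), and Cct6a and Cct8 were at 0.22 and 0.23. Within slides 2, 3 and 4 all 8 were above 0, Cct4 for instance at 0.42, 0.17 and 0.35. With slide as a block the differences were 0.06 to 0.27 and none passed.

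In round spermatids 0 of 8 members and 0.0% of 18843 genes were called by limma, with 0 members and 625 genes (3.32%) at an unadjusted p under 0.05. The members ran from -0.16 for Cct6a to 0.09 for Cct4, with a median of -0.01, equal to that of all genes. Cct6a was at -0.16 ± 0.09 (-0.35 to 0.04), Tcp1 at -0.14 ± 0.11 (-0.37 to 0.09) and Cct8 at -0.13 ± 0.17 (-0.49 to 0.23). The treated and saline arrays overlapped for all 8, and 0.191% of genes had groups apart. Within slide 1 Tcp1 and Cct8 were at 0.04 and -0.36, and within slide 2 at -0.32 and 0.10, so neither kept its sign. Cct6a was below 0 on both slides, at -0.10 and -0.21.

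**Figure D5:**
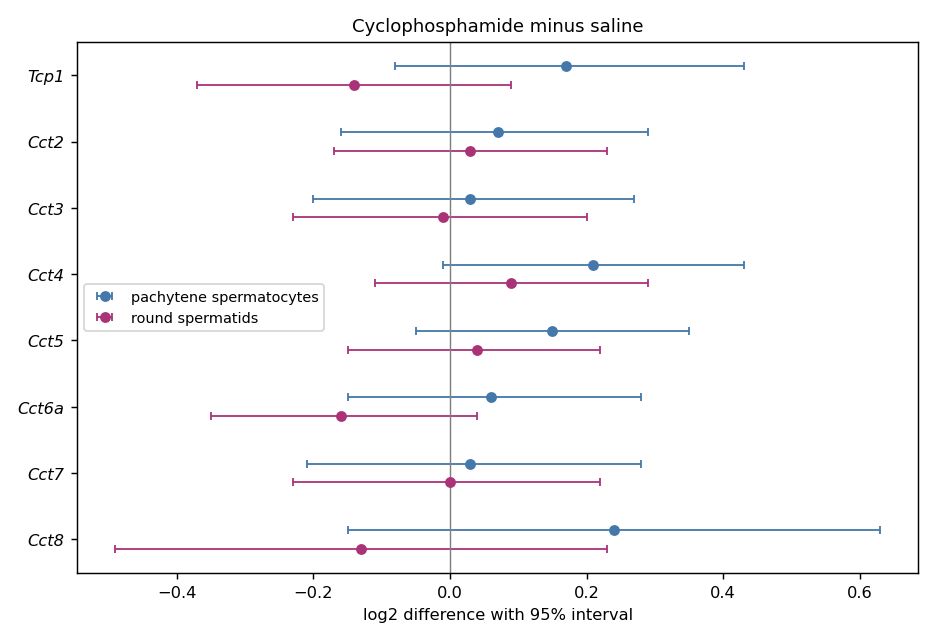
The log2 difference of cyclophosphamide minus saline is plotted for each subunit with its 95% interval, in pachytene spermatocytes (5 against 5 arrays) and round spermatids (6 against 6 arrays). Every interval holds 0, and the points lie between -0.16 for Cct6a in round spermatids and 0.24 for Cct8 in pachytene spermatocytes.

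The drug effect was then compared between the cell types as an interaction. None of the 8 members was called by limma, with 0 at an unadjusted p under 0.05, and 0.0% of 19643 genes were called, with 1502 (7.65%) at that level. All 8 members were below 0, from -0.37 to -0.03 with a median of -0.12 against -0.04 over all genes. The pachytene differences, all above 0, enter this contrast. With quantile normalized arrays Cct2, Cct3 and Cct7 turned to 0.02, 0.04 and 0.05. Tcp1 had the smallest member p, at -0.31 ± 0.17 (-0.66 to 0.03, unadjusted p 0.0743, limma adjusted p = 0.638), with -0.29 ± 0.16 from its other probe, and Cct8 stood at -0.37 ± 0.26 (-0.90 to 0.16). Within slide 1 Tcp1 was at 0.17 and within slide 2 at -0.74. With 5 or 6 arrays a group, the 95% intervals of the drug differences of the 8 members lay between -0.21 and 0.63 in pachytene spermatocytes and between -0.49 and 0.29 in round spermatids. These bounds are the extremes over the members, and those of Cct5 were narrower, at -0.05 to 0.35 and -0.15 to 0.22.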

How the data were processed

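Cy3-labelled RNA of 22 samples was read on one-colour Agilent rat arrays. The deposited scanner files give each spot's processed signal as an intensity, background-subtracted by Agilent Feature Extraction (version 11.5.1.1 per the submitters' processing notes, 10.7.3.1 per the file headers) and not scaled between arrays. The authors' value table holds deposited log2 values. The columns were set against the scanner values over the brighter probes alone, those with a mean level above the median. Each column had a correlation of 0.9588 to 0.9943 with its array and of at most 0.5736 with another. The slopes were 0.9042 to 1.0055, and the column medians over all shared probes were -0.0096 to 0.0072. Probes were centred within a cell type, and the authors' exact scaling is not given in the sources used here, so the table served as an alternative for drug comparisons alone.

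Control and outlier spots were left out, spots of a probe were averaged, and 30330 of 30367 probes had a usable spot on every array. Processed signals were put on the log2 scale and the 75th percentile of each array was subtracted. RefSeq accessions named 17986 probes through the gene table of assembly GRCr8, and the brightest probe on average stood for a gene. A gene was tested if, in either group compared, no more than 1 array failed to show over 0.5 of its probe's spots well above background. No probe was saturated. The position of a probe within its transcript was not used here.

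Group means were fitted to all 22 arrays with limma 3.58.1 (lmFit, eBayes; statmod 1.5.0, R 4.3.3), and 5 contrasts were tested at a Benjamini-Hochberg adjusted p of 0.05. The fit was tested on simulated data. Tables and drawings used Python 3.11.15, numpy 2.4.6, pandas 2.3.3 and matplotlib 3.10.9. Arrays were treated as independent, although rat numbers recur between cell types and the labels do not settle whether 2 cyclophosphamide pachytene samples numbered 16 share an animal; the replicate block joined equal numbers. If they share animals, p-values without the block leave that out. The number of arrays limits the precision. The members, partner lists, markers and motifs were chosen with earlier results of these data known. From each partner list up to 3 genes with the largest difference between cell types of saline rats among those that passed are named, and further ones are said to be chosen after their values were seen or did not pass. Alternatives were quantile normalization, normexp with offset 50 on median signals, no filter on dim probes, the mean of a gene's probes and each probe alone. Others were fewer groups in the fit, slide as a block or alone, each array left out, a replicate block, and the value table.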

Additional observations from a re-analysis of the deposited data

Results flagged for a closer look

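Of 32 sets of levels, 8 genes in 4 groups, 1 held an array far from the rest. In saline pachytene spermatocytes the Cct2 level of rat 28 was 2.71, the nearest of the other 4 was 2.98, and the gap took 0.74 of the group's range. Chance gives such a gap in about 1 in 20 sets. Leaving out any array kept Cct2 higher in round spermatids, at 0.41 to 0.52 in saline rats, and called in each of the 11 fits.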

How the results depend on the processing

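Counts of called members kept their value of 7 of 8 in both comparisons of cell types, and 0 of 8 in the 3 drug comparisons, under normexp background correction, no filter on dim probes, the mean of a gene's probes, each probe alone, fewer groups in the fit and slide as a block. Leaving out each array in turn gave 7 to 7 in saline rats, 7 to 7 in cyclophosphamide rats and 0 to 0 in each drug comparison. Within a single slide, with 1 pachytene array of a treatment against 3 round spermatid arrays and a spread pooled over the groups of that slide, fewer members passed: in saline rats 4 on slide 1 and 3 on slide 2, and in cyclophosphamide rats 3 on slide 1 and 6 on slide 2. The lone array is assumed to vary like the other groups. Cct2 did not pass within a slide. It stood at 0.46 on slide 1 and 0.41 on slide 2 in saline rats, and at 0.47 and 0.28 in cyclophosphamide rats. Under quantile normalization 7 members passed in saline rats, all lower in round spermatids, and 8 in cyclophosphamide rats, 7 of them lower. In saline rats the median shift per gene was -0.09 over all genes, -0.19 over the brightest 10% and -0.22 over the members, whose median went from -0.52 to -0.65. It took Cct2 to 0.19 and Cct5 to -0.21, called and with its sign turned, in saline rats, and Cct5 to -0.23 in cyclophosphamide rats. Signs of the uncalled drug differences of members turned in 13 of 184 values (a member under an alternative) in pachytene spermatocytes, 22 of 184 in round spermatids and 19 of 264 for the interaction. With the rat number as a replicate block the counts were 7, 7, 0, 0 and 0. Over 6 same-numbered pairs of arrays within a treatment the correlation of deviations from group means was -0.09 to 0.38 (median 0.06). Of these, 2 of 6 were closest to their own number, and 54 other pairs gave -0.34 to 0.36 (median -0.02). So few pairs cannot settle whether equal numbers mark the same animal.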
